A study of Rattus norvegicus with 46 samples.

Results

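Aortic banding at 30 weeks was measured on 6 of the 46 arrays of a rat heart hypertrophy series, 4 from banded hearts (banded 1 to banded 4) and 2 from sham hearts (sham 5 and sham 6). The arrays were taken by their labels alone, and the comparison covers all 8740 probe sets of the Affymetrix RGU34A array. The animals were male Wistar rats. A titanium clip around the ascending aorta stayed in place for 30 weeks in banded rats, and sham rats had the operation with no clip. Each array holds RNA pooled from the left ventricles of several rats, so the spread between arrays is a spread between pools and not between single rats. Whole tissue was used, in which fewer cells of a type and less RNA per cell cannot be told apart. Of the other arrays, the banded and sham hearts of 6, 12 and 16 weeks (2 arrays each at each time) and the hearts of 9 weeks after myocardial infarction (4 infarcted, 2 sham) are set beside these.

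A narrowed aorta makes the left ventricle eject against a high pressure. Ventricular myocytes grow under such a load, make natriuretic peptides and switch on genes of the fetal heart, while fibroblasts lay down matrix. The healthy adult heart draws most of its energy from the oxidation of fatty acids, and the enzymes of that pathway are known to be reduced in the overloaded heart.

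Expression was read as model-based intensities with a floor of 16, on a log2 scale. An effect is the mean of the banded arrays minus the mean of the sham arrays on that scale, given ± SE from a limma fit over all 46 arrays, and a probe set was called where its Benjamini-Hochberg adjusted p was below 0.05. Of 8740 probe sets, 98 were called (1.12%), 83 of them higher (0.95%) and 15 lower (0.172%). After quantile normalization the calls were 99, of which 84 were among the 98. Of the 99, 71 were higher (71.7%, against 84.7% of the 98) and 28 lower. The 89 called probe sets with a single gene symbol belong to 73 genes, 61 higher and 12 lower, and no gene was called in both directions. On all 98 the 4 banded arrays lay on one side of both shams, which was so for 997 probe sets above (11.4%) and 800 below (9.15%) of all tested. Most called changes were under 1 log2, and 23 probe sets (16 genes and 1 probe set with no single symbol) were more than 1 log2 higher and 2 probe sets more than 1 log2 lower.

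**Figure D1:**
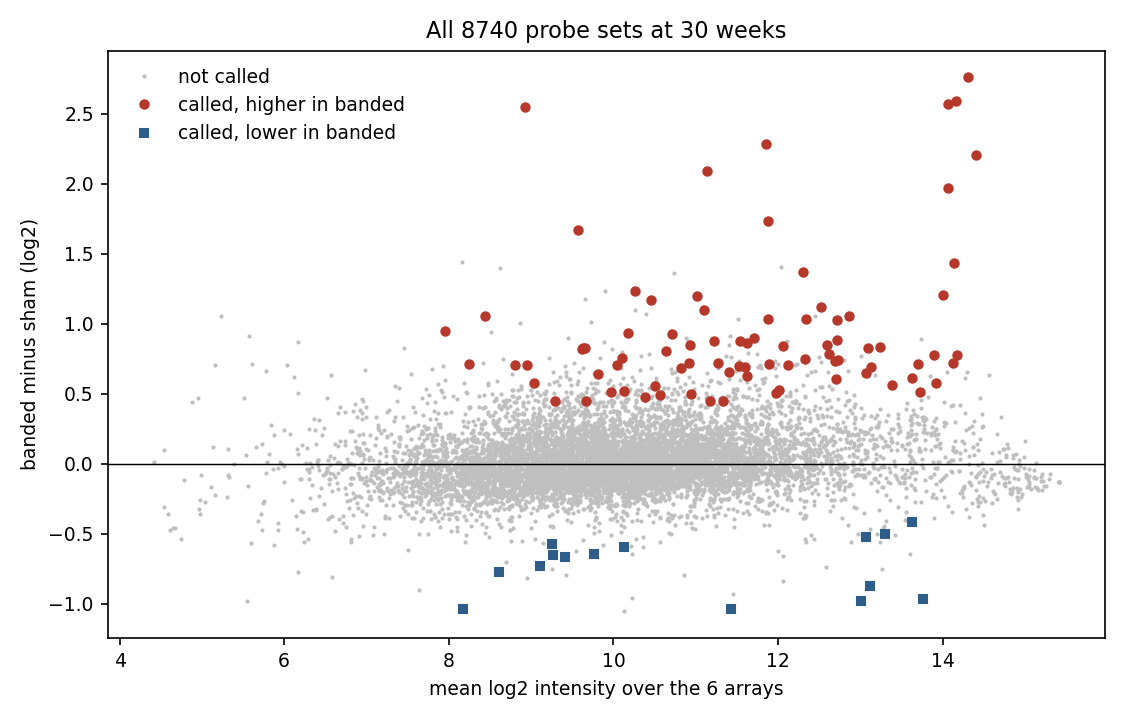
Effect of banding at 30 weeks (banded minus sham, log2, vertical axis) against the mean log2 intensity over the 6 arrays (horizontal axis) for all 8740 probe sets, with the 83 called higher as red circles, the 15 called lower as blue squares and the rest in grey. Called effects reach 2.76 log2 for Nppa and -1.04 for Aqp7.

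The 6 arrays were alike in overall level, with median intensities of 1022.2 to 1056.5 on values already normalized between arrays. Correlations between 2 of the 6 ran between 0.969 (banded 4 and sham 5) and 0.9915 (banded 1 and banded 3). The highest between any 2 of the 46 arrays was 0.994. Any 2 banded arrays differed by a median of 0.11 to 0.22 log2 over all probe sets, and the 2 shams by 0.15. A banded and a sham array differed by 0.12 to 0.23, so over all probe sets the arrays did not part by group. Banded 3 stood nearer to sham 5 (0.12) and sham 6 (0.14) than to banded 2 (0.16) or banded 4 (0.19). The shams did not stand alike on the called genes. Sham 6 was above sham 5 for 64 of the 83 probe sets called higher, against 50.3% of all probe sets, and over those 83 the median of sham 5 lay at -0.19 log2 and that of sham 6 at 0.07 from the mean of the 6 earlier banding shams. Without sham 5 there were 17 calls, 15 of them among the 98, and without sham 6 there were 88, of which 59 were among the 98. The 15 that held without sham 5 were those of Nppa (4 probe sets), Akip1 (2), Csrp2, Acta1, Pmepa1, Tsc22d1, Bex3, Ide and Acaa2, 1 of the 3 called probe sets of Sorbs2 and 1 probe set with no gene symbol. Leaving out an array also leaves fewer arrays for the test. Where a gene named below lost its call without sham 5, its effect is therefore given, in most cases with the adjusted p. Without sham 6, probe sets of Ddah1, Slc16a1, Bgn and Npy, among others, also lost their calls, at 0.90, 0.73, 0.66 and -0.62. Losses without sham 6 are not given for each gene.

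**Figure D2:**
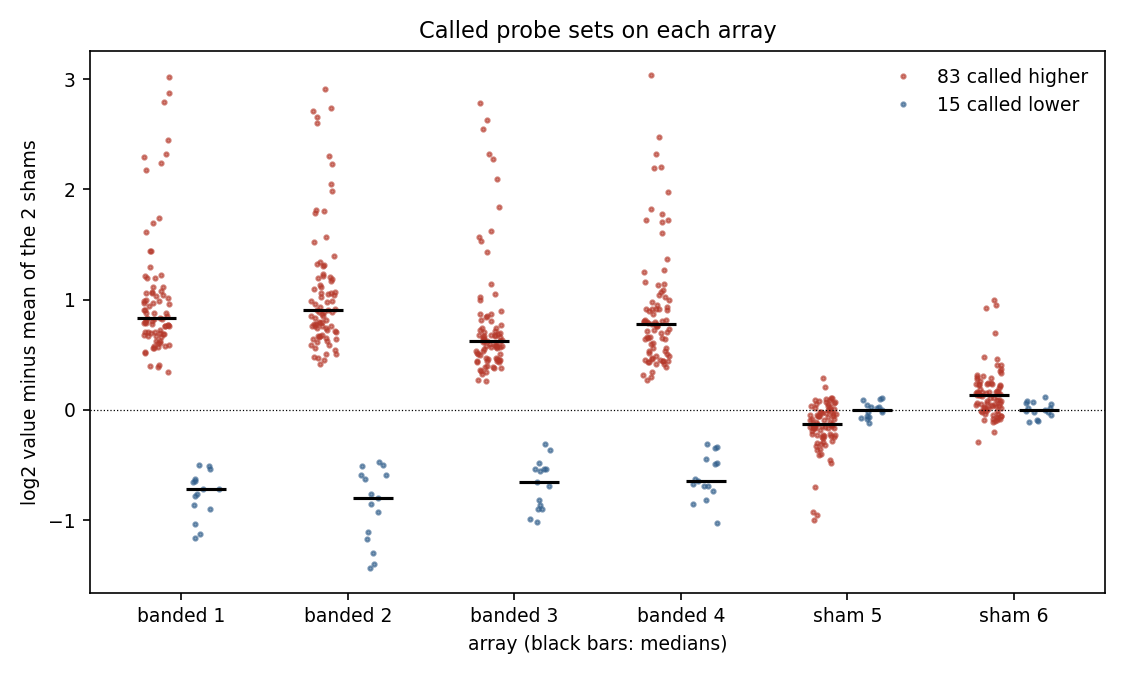
Log2 value minus the mean of the 2 shams (vertical axis) for the 98 called probe sets on each array (horizontal axis, banded 1 to 4 and then sham 5 and 6), the 83 called higher in red and the 15 called lower in blue, with black bars at the medians. Banded medians of the higher calls are 0.83, 0.91, 0.62 and 0.78.

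Nppa and Nppb, the genes of atrial and B-type natriuretic peptide, and Acta1, the gene of skeletal alpha-actin that the fetal heart uses, were among the leading genes, and their promoters are shown because these genes rose together. The RefSeq windows of 300 bases around the start of transcription are, in build GRCr8, chr5:163711934-163712233 on the plus strand for Nppa, chr5:163699758-163700057 on the plus strand for Nppb and chr19:68784145-68784444 on the minus strand for Acta1. The starts of Nppb and Nppa lie 12176 bases apart on chromosome 5. Capitals mark exact matches, on either strand, to the M-CAT element CATTCC, the GATA element AGATAA, the TATA element TATAAA and, by name, the CArG box that serum response factor binds.
Nppa promoter: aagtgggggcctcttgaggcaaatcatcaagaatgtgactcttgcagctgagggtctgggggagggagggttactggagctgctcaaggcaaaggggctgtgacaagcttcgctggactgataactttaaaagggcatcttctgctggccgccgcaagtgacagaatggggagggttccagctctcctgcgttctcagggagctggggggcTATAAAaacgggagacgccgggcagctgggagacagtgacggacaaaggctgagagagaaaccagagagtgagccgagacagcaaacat
Nppb promoter: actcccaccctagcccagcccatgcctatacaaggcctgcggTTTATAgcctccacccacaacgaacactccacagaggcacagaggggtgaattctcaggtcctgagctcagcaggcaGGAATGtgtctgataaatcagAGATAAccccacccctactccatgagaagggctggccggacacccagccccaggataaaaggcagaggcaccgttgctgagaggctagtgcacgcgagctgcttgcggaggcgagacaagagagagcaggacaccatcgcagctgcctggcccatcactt
Acta1 promoter: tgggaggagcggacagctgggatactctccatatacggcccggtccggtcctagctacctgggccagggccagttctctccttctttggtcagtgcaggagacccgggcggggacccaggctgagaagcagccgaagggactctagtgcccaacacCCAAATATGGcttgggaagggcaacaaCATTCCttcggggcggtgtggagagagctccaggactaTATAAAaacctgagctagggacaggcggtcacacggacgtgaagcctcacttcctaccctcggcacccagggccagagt
The Acta1 window held a CArG box, an M-CAT element and a TATA element, and no marked match overlapped another. The Nppb window held M-CAT, GATA and TATA matches, with the TATA match at -208 from the start, and the Nppa window held a TATA match only, at -39. Of 33469 rat promoter windows of the same 300 bases, 14.2% held M-CAT, 11.6% GATA, 14.2% TATA and 1.64% a CArG box. Windows were found for 50 of the 61 higher genes, and of those 14% held M-CAT, 12% GATA, 12% TATA and 2% a CArG box. A match is a match of letters and not a site shown to be bound.

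With both shams Nppa had the largest called effect, 2.76 log2 on 1 of its 4 probe sets. Its brightest probe set read 15.38, 15.24, 15.21 and 14.71 in banded hearts and 12.24 and 13.63 in sham hearts, an effect of 2.20 ± 0.224 (4.6-fold, adjusted p = 2.05e-07). Every banded array stood above both shams, and the shams themselves stood 1.39 log2 apart. The remaining probe sets were higher by 2.57, 2.59 and 2.76. Without sham 5 the 4 Nppa probe sets kept their calls at 1.51, 1.62, 1.59 and 1.83, below 2.29 for Csrp2 and 2.14 and 2.23 for Akip1. Nppb read 14.92, 14.75, 14.62 and 14.18 in banded hearts and 12.70 and 13.66 in sham hearts, an effect of 1.43 ± 0.226 (2.7-fold, adjusted p = 0.000322). The groups did not overlap, and without sham 5 the effect was 0.95 (adjusted p = 0.254).

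Npr3, the receptor that clears natriuretic peptides, read 10.05, 9.72, 9.82 and 9.99 in banded hearts against 8.93 and 9.23 in sham hearts. It was higher on both of its probe sets, by 0.82 ± 0.144 (adjusted p = 0.00137) and 0.71 ± 0.136 (adjusted p = 0.00359). Without sham 5 its effects were 0.67 and 0.68, not called (adjusted p = 0.254 and 0.173). The guanylyl cyclase receptors Npr1 and Npr2, which signal for the peptides, had effects of 0.01 and 0.01, and Furin, a convertase that cleaves peptide precursors, of -0.09. Of 8 measured genes of the peptides and their processing, 3 were called higher and none lower, with a median effect of 0.23 (0.06 where the probe sets of each gene are averaged), beside 0.95% of all genes called higher and a median of -0.00 over all genes.

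Among genes of the fetal and stressed ventricle, Acta1 read 14.93, 14.80, 14.59 and 14.57 in banded hearts and 12.49 and 13.01 in sham hearts, higher by 1.97 ± 0.206 log2 (3.92-fold, adjusted p = 2.51e-07). The groups were far apart, the lowest banded array standing more than 1 log2 above the higher sham. Csrp3, the muscle LIM protein of the Z-disc, read 14.56, 14.54, 14.31 and 14.30 in banded hearts against 13.52 and 13.79 in sham hearts, higher by 0.77 ± 0.146 (adjusted p = 0.00308), and by 0.64 without sham 5 (adjusted p = 0.326). These were the 2 calls among 10 measured genes of the list (0.95% of all genes were called higher). Its median was 0.22 (0.37 with probe sets averaged). Acta2, smooth muscle alpha-actin, was at 0.91 ± 0.248 (adjusted p = 0.0683) and Ankrd1, a stretch-responsive ankyrin repeat protein, at 0.16.

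The myosin heavy chains are the textbook pair of the rat heart, Myh6 for the fast adult form and Myh7 for the slow fetal form. The brightest Myh7 probe set read 15.41, 15.29, 15.28 and 14.73 in banded hearts and 15.46 and 15.14 in sham hearts. That of Myh6 read 15.17, 15.07, 15.13 and 14.69 in banded hearts and 15.33 and 15.07 in sham hearts. The groups overlapped in both, with effects of -0.12 ± 0.179 and -0.18 ± 0.255 that did not pass the test. The readings of these Myh7 and Myh6 probe sets ran much alike over the arrays. Whether each probe set reads its own myosin alone was not tested, so these values do not decide whether the isoforms shifted. A second Myh7 probe set read 14.99, 14.82, 14.87 and 14.62 in banded hearts and 14.52 and 14.84 in sham hearts, with effects of 1.52, 0.42, 0.48 and 0.14 at 6, 12, 16 and 30 weeks.

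These readings lie at the top of the scale. On each of the 6 arrays the same 6 probe sets, among them those of Actc1, Tnni3 and Tpm1, were within 0.01 log2 of the highest value, which was 15.65, 15.50, 15.48 and 14.87 on the banded arrays and 15.71 and 15.30 on the shams. Within 0.5 log2 of it on at least 1 array stood 10 of the 14 cardiomyocyte markers and 5 of the 98 called probe sets, those of Nppa and Acta1. The mean of the highest values was -0.13 log2 in banded minus sham arrays, and the median effect of the cardiomyocyte markers was -0.12. The part of this limit in the myosin, Nppa and Acta1 readings was not tested.

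Csrp2, Sorbs2, Flnc and Hspb1, known from the Z-disc or from actin filaments, had called probe sets, all of them higher. Csrp2, a LIM protein related to Csrp3 and known from smooth muscle, read 12.04, 12.46, 11.37 and 11.47 in banded hearts and 9.96 and 9.54 in sham hearts, higher by 2.09 ± 0.251 (4.25-fold, adjusted p = 2.7e-06). Sorbs2, an adaptor of the Z-disc and intercalated disc, read 12.85, 12.87, 12.47 and 12.55 in banded hearts against 11.43 and 11.88 in sham hearts on its brightest probe set. It was higher on its 3 called probe sets by 1.03, 1.03 and 1.12, and in both genes the groups were well apart. Without sham 5 the brightest was at 0.81 (adjusted p = 0.102) and the others at 1.08 (adjusted p = 0.0625) and 0.98 (adjusted p = 0.0465). Flnc, the muscle filamin, was picked after its values were seen and was higher by 0.60 ± 0.148 and 0.71 ± 0.16 on its called probe sets. Hspb1, a small heat shock protein that guards actin filaments, was higher by 0.69 ± 0.173 on 1 probe set (adjusted p = 0.0379). It stood at 0.65 ± 0.246 on its brightest (adjusted p = 0.293) and at 0.62 and -0.25 on the others, not called. Without sham 5 none of these Flnc and Hspb1 probe sets was called, at 0.62 and 0.69 for Flnc (adjusted p = 0.404 and 0.384) and 0.50 for Hspb1 (adjusted p = 0.877).

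The lists of sarcomere and non-muscle cytoskeleton genes held no call by their brightest probe sets. Of all genes 0.95% were called higher and 0.211% lower, and at that share lists of this size would hold few calls or none. Of 11 sarcomere genes of the adult ventricle none was called, with a median of -0.11, and the highest was desmin, Des, at 0.30 ± 0.155 (adjusted p = 0.5). The 21 genes of the non-muscle cytoskeleton had 19 above 0, beside 2332 of 4736 genes in all, and none called. Their median was 0.30 (0.20 after quantile normalization), and vimentin, Vim, was at 0.48 ± 0.187.

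Akip1, a protein kinase A interacting protein, lies outside the rule for named genes and was singled out after its values were seen. Its probe sets disagreed. One pair was higher by 2.28 ± 0.241 and 2.55 ± 0.34 log2 (adjusted p = 2.53e-07 and 2.03e-05), and the brighter of them read 12.65, 12.57, 12.42 and 12.81 in banded hearts and 10.19 and 10.47 in sham hearts, with no overlap. The other pair annotated to the same symbol stood at -0.02 and 0.11. When only the 6 arrays of 30 weeks were fitted, 5 probe sets were called, among them Acta1 (adjusted p = 0.0117) and the higher pair of Akip1 (adjusted p = 0.00191 and 0.0174).

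**Figure D3:**
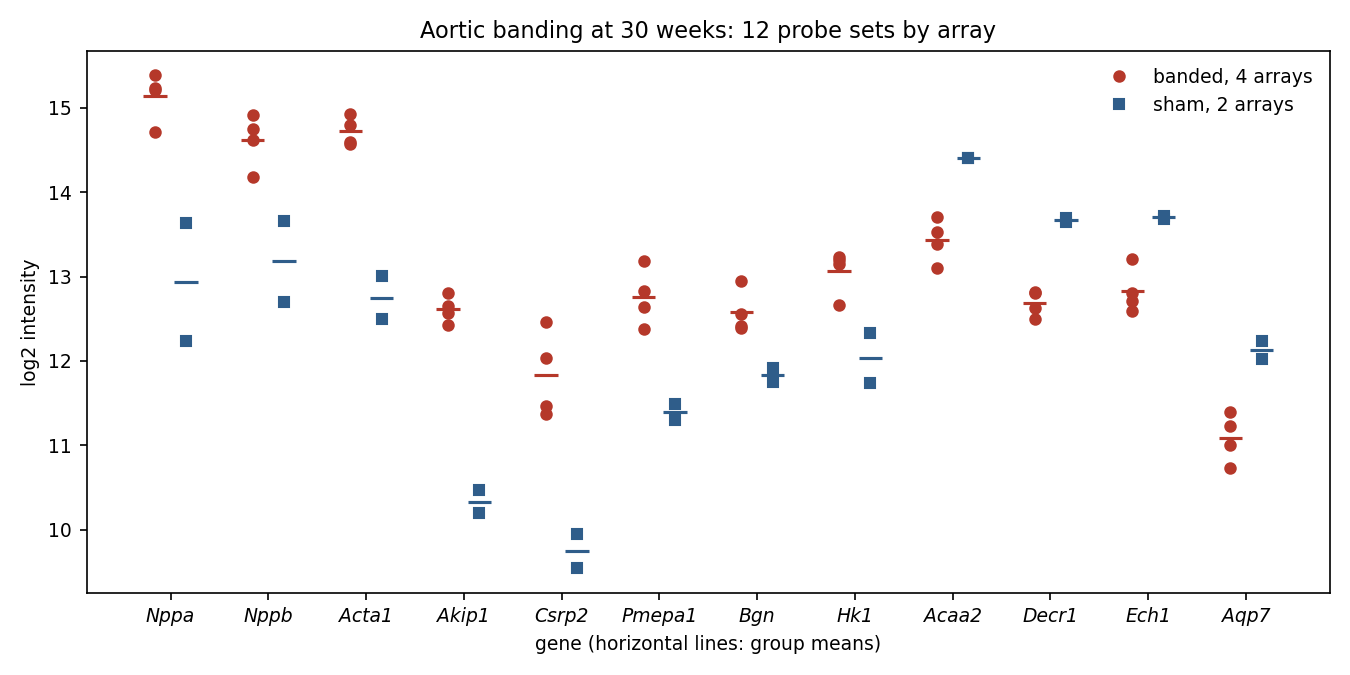
Log2 intensity (vertical axis) of 12 called probe sets (horizontal axis), each banded array as a red circle on the left and each sham array as a blue square on the right, with lines at the group means. The Nppa shams stand 1.39 log2 apart, and those of Acaa2 coincide at 14.40.

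Of 28 measured genes of fatty acid oxidation, 5 were called lower and none higher, beside 0.211% of all genes called lower. Acaa2, the thiolase of the last step of each mitochondrial cycle, read 13.53, 13.11, 13.38 and 13.71 in banded hearts and 14.40 and 14.40 in sham hearts (-0.97 ± 0.147, 1.96-fold lower, adjusted p = 0.000219). Decr1, the reductase needed for unsaturated fatty acids, read 12.63, 12.50, 12.80 and 12.81 in banded hearts against 13.69 and 13.65 in sham hearts (-0.98 ± 0.188, adjusted p = 0.00347). Ech1, a dienoyl-CoA isomerase, read 12.80, 12.60, 12.71 and 13.21 in banded hearts and 13.68 and 13.72 in sham hearts (-0.87 ± 0.166, adjusted p = 0.00308). In each of these the shams lay close together and above every banded array. Eci1, an isomerase for double bonds, changed by -0.53 ± 0.125 (adjusted p = 0.026). Hadha, the alpha subunit of the trifunctional protein, changed by -0.50 ± 0.117 (adjusted p = 0.0223), with -0.51 and -0.27 on its other probe sets, not called. The beta subunit Hadhb was at -0.75 ± 0.199 (adjusted p = 0.0581), and at -0.84 after quantile normalization, where it was called (adjusted p = 0.0115). Without sham 5 Acaa2 kept its call at -0.97 (adjusted p = 0.0166), and the effects were -0.96 for Decr1 (adjusted p = 0.164), -0.89 for Ech1 (adjusted p = 0.102), -0.43 for Eci1 (adjusted p = 0.693) and -0.56 for Hadha (adjusted p = 0.248).

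In value 27 of the 28 were below 0, with a median of -0.33 (-0.40 after quantile normalization) against -0.00 over all genes. In 15 of them every banded array lay below both shams, against 9.48% of all genes. The acyl-CoA dehydrogenases Acadvl and Acadm, which start each cycle, stood at -0.51 and -0.50, and the carnitine acyltransferases Cpt1b and Cpt2, which bring fatty acids into mitochondria, at -0.06 and -0.37. The exception above 0 was Acsl4, an acyl-CoA ligase known for arachidonic acid, at 0.22. By array the median of the list was -0.35, -0.51, -0.38 and -0.18 from the sham mean in banded 1 to 4.

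The 27 genes of oxidative phosphorylation had a median of -0.16 and the 17 of the citrate cycle and pyruvate oxidation of -0.16. None was called in either, beside 0.211% of all genes called lower. The lowest values there rested on banded 2. Cox5a, a subunit of cytochrome oxidase, read 10.11, 9.05, 9.95 and 10.08 in banded hearts and 10.31 and 10.31 in sham hearts (-0.51 ± 0.217). Got2, the mitochondrial aspartate aminotransferase, read 13.55, 12.37, 13.72 and 13.90 in banded hearts and 14.09 and 13.97 in sham hearts (-0.64 ± 0.226).

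Aqp7, a channel through which fat and heart cells pass glycerol, read 11.00, 10.73, 11.23 and 11.39 in banded hearts and 12.23 and 12.02 in sham hearts (-1.04 ± 0.201, 2.05-fold lower, adjusted p = 0.00359). The groups did not overlap, and without sham 5 the effect was -0.93 (adjusted p = 0.281). It was the 1 called gene of 18 of lipid uptake and storage, whose median was -0.10 (0.211% of all genes were called lower). Fabp3 and Cd36, which carry fatty acids into and within the myocyte, were at -0.24 and -0.23.

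The other lower genes were of mixed roles. They were Hpd of tyrosine breakdown (-0.57 and -0.77), Iqgap2, a scaffold of the actin cortex (-0.73), the GABA receptor subunit Gabrb2 (-0.65), the sympathetic co-transmitter Npy (-0.60) and, outside the naming rule, the proteasome activator subunit Psme1 (-0.42) and the sodium channel relative Scn7a. Npy read 10.02, 10.02, 10.16 and 9.50 in banded hearts and 10.55 and 10.50 in sham hearts, lowest in banded 4. Scn7a was at -1.04 on 1 probe set and 0.03 on another, brighter one. None of these kept its call without sham 5 (adjusted p from 0.226 for Hpd to 0.501 for Gabrb2), where the effects were -0.65 and -0.84 for Hpd, -0.64 for Iqgap2, -0.61 for Gabrb2, -0.57 for Npy, -0.44 for Psme1 and -1.02 for Scn7a.

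Genes of glucose handling had values on both sides of 0. Of 22 measured for glucose uptake, glycolysis and glycogen, 14 were below 0, with a median of -0.12 (-0.18 after quantile normalization). Every banded array lay below both shams in 6 and above both in 3, against 9.48% and 11.7% of all genes. Of the 22, 1 was called, beside 0.95% of all genes called higher. That gene was Slc16a1, a carrier of lactate and pyruvate, with 13.65, 13.64, 13.19 and 13.00 in banded hearts and 12.64 and 12.45 in sham hearts (0.83 ± 0.179, adjusted p = 0.0116) and 0.74 on a second probe set. Nmrk2, a muscle kinase that makes an NAD precursor from nicotinamide riboside, read 10.77, 10.41, 10.14 and 10.64 in banded hearts and 9.50 and 9.61 in sham hearts (0.93 ± 0.152, adjusted p = 0.000456). In both genes every banded array was above the shams. Hk1 and Slc2a4 were named after their values were seen, because their probe sets disagree. Hk1, a hexokinase of brain and fetal heart, read 13.15, 13.24, 12.66 and 13.20 in banded hearts and 11.74 and 12.33 in sham hearts on the called probe set (1.03 ± 0.183, adjusted p = 0.00157) and stood at -0.08 on another. Slc2a4, the insulin-responsive glucose transporter, was at 0.68 ± 0.146 on 1 probe set (adjusted p = 0.0108) and at -0.30 ± 0.239 on its brightest. Without sham 5 these were not called, at 0.92 and 0.51 for Slc16a1 (adjusted p = 0.139 and 0.879), 0.88 for Nmrk2 (adjusted p = 0.0579), 0.73 for Hk1 (adjusted p = 0.384) and 0.35 for Slc2a4 (adjusted p = 0.94).

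In the extracellular matrix few genes were called. Bgn, the proteoglycan biglycan, read 12.55, 12.94, 12.41 and 12.39 in banded hearts and 11.91 and 11.75 in sham hearts (0.75 ± 0.177, adjusted p = 0.0255), and was higher by 1.73 ± 0.265 on a second probe set. Aspn, the related small proteoglycan asporin, read 8.72, 8.95, 8.64 and 8.87 in banded hearts and 7.44 and 8.04 in sham hearts (1.06 ± 0.204, adjusted p = 0.00365). Neither overlapped the shams. Timp2, an inhibitor of matrix metalloproteinases, was higher by 0.85 ± 0.193 (adjusted p = 0.0179), the lysosomal protease Ctsl by 0.74 ± 0.191 (adjusted p = 0.0496), the secreted glycoprotein Mfge8 by 0.64 ± 0.159 (adjusted p = 0.0327) and the heparan sulphate proteoglycan Gpc1 by 0.51 ± 0.116 (adjusted p = 0.0169). Without sham 5 none of these was called, at 0.83 and 1.33 for Bgn (adjusted p = 0.267 and 0.114), 0.76 for Aspn (adjusted p = 0.501), 0.71 for Timp2 (adjusted p = 0.588), 0.79 for Ctsl (adjusted p = 0.404), 0.46 for Gpc1 (adjusted p = 0.472) and 0.40 for Mfge8 (adjusted p = 0.968).

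Several matrix genes had larger effects that did not pass. Postn, periostin of activated fibroblasts, read 8.88, 8.67, 8.73 and 8.25 in banded hearts and 7.61 and 6.78 in sham hearts (1.44 ± 0.481, adjusted p = 0.186). Spp1, osteopontin, read 9.55, 9.13, 9.04 and 8.64 in banded hearts and 7.98 and 7.41 in sham hearts (1.40 ± 0.566, adjusted p = 0.344). The fibrillar collagens Col1a1 (0.61 ± 0.25, adjusted p = 0.349) and Col3a1 (0.71 ± 0.208, adjusted p = 0.106) did not pass either, although every banded array was above both shams in each of these 4 genes on the brightest probe set. The probe sets of Col1a1 disagreed, with 0.40, 0.08 and -0.29 on the other 3. Of 11 matricellular genes 1 was called higher (0.95% of all genes) and 7 had every banded array above both shams (11.7% of all genes). Their median was 0.64, and 0.41 with the probe sets of each gene averaged. Of 13 genes of fibrillar collagens and their cross-linking 12 were above 0 and none was called, with a median of 0.29.

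**Figure D4:**
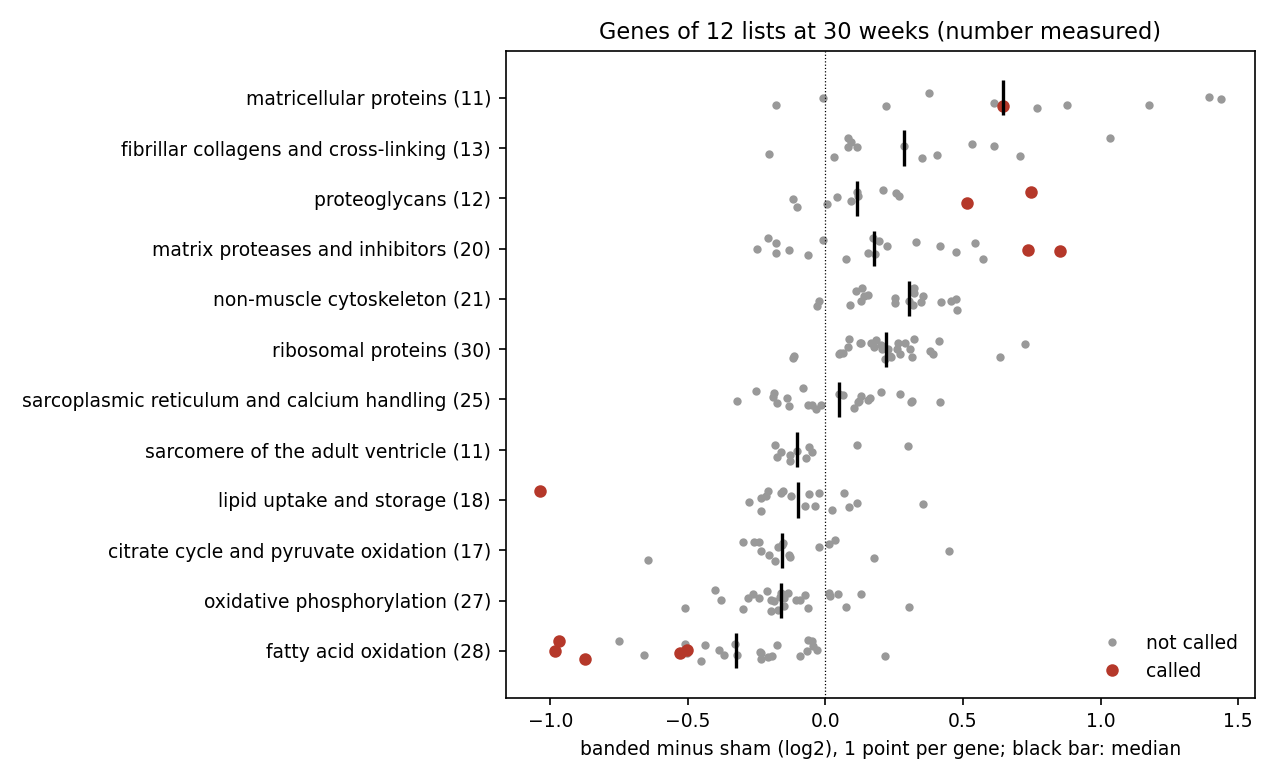
Effect at 30 weeks (banded minus sham, log2, horizontal axis) of each measured gene in 12 lists (vertical axis, with the number measured), called genes in red, others in grey and black bars at the medians. Medians run between 0.64 for matricellular proteins and -0.33 for fatty acid oxidation.

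Pmepa1 and Tsc22d1, both known from TGF-beta signalling, were higher. Pmepa1, a membrane protein that dampens TGF-beta signalling, read 12.83, 13.18, 12.38 and 12.64 in banded hearts and 11.48 and 11.30 in sham hearts (1.37 ± 0.216, adjusted p = 0.000322). Tsc22d1, a leucine zipper gene induced by TGF-beta, read 14.64, 14.50, 14.34 and 14.13 in banded hearts and 13.11 and 13.28 in sham hearts (1.21 ± 0.192, adjusted p = 0.000322). Both kept their calls without sham 5 (adjusted p = 0.0128 and 0.0498) and without sham 6 (adjusted p = 0.0185 and 0.00517). The 20 genes of TGF-beta and BMP signalling had 9 above 0 and a median of -0.02. Tsc22d1 was the 1 call there, beside 0.95% of all genes called higher. The other higher genes named were of mixed roles. Ccnd2, cyclin D2, was higher by 0.83 ± 0.17 (adjusted p = 0.00696) and the growth arrest gene Gadd45a by 0.88 ± 0.172 (adjusted p = 0.00402). Azin1, which protects ornithine decarboxylase and with it polyamine synthesis, was higher by 0.72 ± 0.15 (adjusted p = 0.00841), and Pde4a, a phosphodiesterase of cyclic AMP, by 0.50 ± 0.0936 (adjusted p = 0.00278). Prnp, the prion protein gene, was higher by 1.05 ± 0.228 (adjusted p = 0.0116), and Anxa5, a calcium-dependent membrane-binding protein, by 0.78 ± 0.179 (adjusted p = 0.0189). Without sham 5 these were not called, at 0.67 for Ccnd2 (adjusted p = 0.446), 0.69 for Gadd45a (adjusted p = 0.412), 0.69 for Azin1 (adjusted p = 0.301), 0.42 for Pde4a (adjusted p = 0.301), 0.82 for Prnp (adjusted p = 0.591) and 0.56 for Anxa5 (adjusted p = 0.73).

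The lists of calcium handling and potassium channel genes gave no calls by their brightest probe sets. Of all genes 0.95% were called higher and 0.211% lower. Of 25 genes of the sarcoplasmic reticulum and calcium handling the median was 0.05 (-0.06 after quantile normalization). Atp2a2, the calcium pump SERCA2, read 15.44, 15.03, 15.30 and 14.81 in banded hearts and 15.49 and 15.18 in sham hearts (-0.19 ± 0.183). These readings were near the highest value of each array, and the groups overlapped. Its other probe sets, lower in level, were at -0.27, 0.19 and 0.11 and not called. Of 20 potassium channel genes Kcne1, a subunit of the slow delayed rectifier, had the largest value at 0.87 ± 0.232 (adjusted p = 0.0611), and a second probe set of it was called at 0.58 ± 0.138 (adjusted p = 0.0281). Kcnj14, an inward rectifier potassium channel gene outside that list and named after its values were seen, was higher by 0.71 ± 0.178 (adjusted p = 0.0357). Without sham 5 neither was called, at 0.68 for Kcne1 (adjusted p = 0.188) and 0.48 for Kcnj14 (adjusted p = 0.911).

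The effects at 30 weeks were set against those of earlier banding, each time against its own shams. Of the 98 called probe sets, 93 had the same sign in the mean of 6, 12 and 16 weeks, and 86 were larger in size at 30 weeks, a share that choosing by the 30-week effect favours. The median of the higher calls was 0.78 at 30 weeks and 0.38 earlier, and that of the lower calls -0.67 at 30 weeks and -0.54 earlier. At 6, 12, 16 and 30 weeks Nppa was at 2.37, 2.60, 2.47 and 2.20, Acta1 at 1.87, 2.14, 2.09 and 1.97, Acaa2 at -0.89, -0.85, -1.10 and -0.97 and Aqp7 at -0.96, -0.76, -1.12 and -1.04. These genes kept much the same value over the 4 times. Ddah1, which clears an inhibitor of nitric oxide synthase, was at 0.13, 0.15, -0.21 and 1.20 on its brightest probe set and at 0.16, 0.22, -0.30 and 0.83 on another. Without sham 5 these Ddah1 probe sets were at 1.49 and 0.83 at 30 weeks, and without sham 6 at 0.90 and 0.82. Without banded 2 they were at 0.99 and 0.75 in limma (adjusted p = 0.0961 and 0.0142). The called Hk1 probe set was at 0.20, 0.36, -0.11 and 1.03, Sorbs2 at 0.23, 0.65, 0.09 and 1.03, Pmepa1 at 0.71, 0.60, 0.49 and 1.37 and Npy at -0.19, 0.10, 0.11 and -0.60.

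The difference between 30 weeks and the earlier mean passed the test for 0 of 8740 probe sets (0%) in limma, with a smallest adjusted p of 0.284, while 500 were higher and 309 lower at an unadjusted p below 0.05 (9.26% in all). For Ddah1 it was 1.17 ± 0.329 (adjusted p = 0.362), for Hk1 0.88 ± 0.22 (adjusted p = 0.35), for Sorbs2 0.71 ± 0.19 (adjusted p = 0.35) and for Npy -0.60 ± 0.166 (adjusted p = 0.357). For Nppa it was -0.28 ± 0.269 and for Acaa2 -0.02 ± 0.177. Without sham 6 there were 8 calls for this difference. Among them, named after their values were seen, was Dusp1, a phosphatase of MAP kinases, with a mean of 9.21 in banded hearts against 7.18 in sham 5 and 9.21 in sham 6. Another was Lyn, a Src-family kinase, with a mean of 8.47 in banded hearts against 9.76 in sham 5 and 8.58 in sham 6. In both genes the banded mean lay near sham 6 and away from sham 5.

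**Figure D5:**
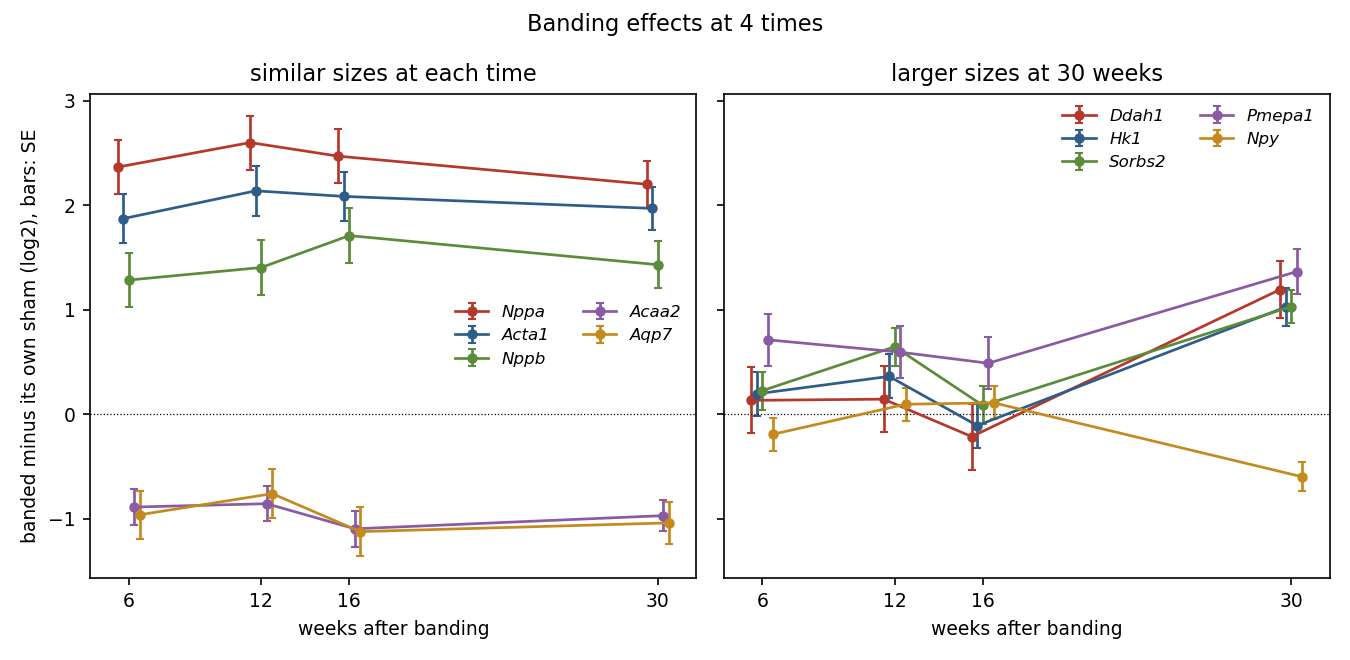
Effect of banding (banded minus its own sham, log2, vertical axis, bars SE) at 6, 12, 16 and 30 weeks (horizontal axis) for 10 probe sets chosen after their values were seen, on the left 5 of similar size at each time and on the right 5 larger in size at 30 weeks. Ddah1 reads 1.20 at 30 weeks against -0.21 to 0.15 earlier, a difference that did not pass the test.

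Against infarction at 9 weeks, each with its own shams, 0 of 8740 probe sets (0%) differed in limma (smallest adjusted p 0.436), while 204 were higher and 285 lower in banding at an unadjusted p below 0.05 (5.59%). Nppa was at 2.20 in banding and 2.65 in infarction, Acta1 at 1.97 in banding and 1.77 in infarction, and Csrp2 at 2.09 in banding and 1.32 in infarction. Postn was at 1.44 in banding and 2.39 in infarction. The median of the fatty acid oxidation list was -0.33 in banding and -0.17 in infarction, where Acaa2 stood at -0.55 and Aqp7 at -0.38. Without sham 6 there were 6 calls for this difference, 5 higher and 1 lower.

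The 4 banded arrays did not stand alike. Banded 2 was the most changed of them for 48 of the 98 called probe sets and banded 3 the least changed for another 48. Banded 4 was the farthest from the rest of the banded arrays over all probe sets. Its median distance from the mean of the other 3 was 0.19 log2 (0.11 to 0.14 for banded 1 to 3). It had 118 probe sets more than 1 log2 away (14 to 35 for banded 1 to 3). Banded 4 also stood nearer to sham 6, at a median of 0.17, than to any banded array (0.19 to 0.22). Among genes with the widest spread, Gpr161, an orphan receptor of the cilium, read 10.77, 10.40, 10.79 and 7.66 in banded hearts and 10.95 and 10.78 in sham hearts. Nr0b2, a nuclear receptor that lacks a DNA-binding domain, read 11.75, 11.82, 11.82 and 9.93 in banded hearts and 11.73 and 11.72 in sham hearts. In both genes only banded 4 was low. Nos1, the neuronal nitric oxide synthase, was instead low in banded 2, with 11.11, 8.95, 11.29 and 11.04 in banded hearts and 11.36 and 11.42 in sham hearts. Without banded 1 there were 60 calls, without banded 2 there were 54, without banded 3 there were 119 and without banded 4 there were 104.

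Markers of the cell types a left ventricle could hold were read from 13 lists. The fibroblast list had 9 of 10 markers above 0 and none called, with a median of 0.50 (0.40 after quantile normalization, 0.31 with probe sets averaged). Its mean level was 11.35 to 11.74 in banded hearts and 10.98 to 11.03 in sham hearts, highest in banded 2. Of its genes 9 also stand in a pathway list, so it is not separate evidence. Pathway lists also hold 14 of 14 cardiomyocyte, 5 of 5 atrial, 3 of 5 smooth muscle, 5 of 9 endothelial and 4 of 9 macrophage markers. Those marker lists are not separate evidence either. Smooth muscle markers had 4 of 5 with every banded array above both shams (11.7% of all genes) and none called. Acta2 and Tagln were among these 4, the median was 0.27, and Cnn1, calponin, was at -0.04. Atrial myocyte markers (5 measured, median 0.33) had Nppa as the one call, with the atrial myosin light chains Myl4 and Myl7 at 0.44 ± 0.234 and -0.02. The 14 cardiomyocyte markers had a mean level of 14.14 to 14.41 in banded hearts and 14.32 to 14.46 in sham hearts, lowest in banded 4. Macrophage markers (9 measured, median 0.28) had Lyz2, lysozyme, at 1.41 ± 0.428 (adjusted p = 0.125) but Csf1r and Ptprc at -0.27 and -0.15. Endothelial markers had a median of -0.10, with Kdr, a receptor of vascular endothelial growth factor, at -0.43 ± 0.254. Medians of T and B cell, mast cell, erythroid, skeletal muscle, nerve, adipocyte and mesothelial markers lay between -0.11 and -0.03, and the one call among them was that of Npy in the nerve list. The part of cell composition in the values of Nppa, Csrp2, Acta2 and the matrix genes was not tested.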

How the data were processed

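Left ventricular RNA pools of banded and sham rats had been hybridised to Affymetrix RGU34A arrays. The authors computed model-based expression intensities with dChip from perfect-match probes after invariant rank normalization, and these linear intensity values were deposited with no detection calls. Here values were raised to at least 16 and converted to log2. Group means of all 20 groups were fitted with limma 3.58.1 in R 4.3.3 (46 arrays, 26 residual degrees of freedom), and p-values were adjusted by the Benjamini-Hochberg method over 8740 probe sets. Of these, 7006 carried 1 gene symbol in the platform annotation, 308 several and 1426 none, for 4736 genes. A gene is given by its brightest probe set over all arrays unless another is named. Promoters came from RefSeq tables of build GRCr8. Tables and figures used Python 3.11.15, pandas 2.3.3 and matplotlib 3.10.9.

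The named genes are up to 12 strongest called in each direction, up to 4 called members of each of 38 pathway lists (or 2 uncalled where none was called), the 8 with the widest spread in banded hearts and 12 fixed genes. Genes outside this rule are also given, and only some are said to be so where they appear. The others include uncalled members of lists that had a call, such as Npr1, Npr2, Furin, Ankrd1, Hadhb, Acadvl, Acadm, Cpt1b, Cpt2, Acsl4, Fabp3 and Cd36. Cell type markers and Nmt1 are further cases. The comparison, the lists and the rule were chosen with earlier results of these data known. Alternatives were floors of 1 and 64, quantile normalization, dim probe sets left out, array weights, a trended prior, the 6 arrays alone, all 8 banding shams, a log ratio to the sham mean and each array left out. The fit was tested on simulated data. Arrays of 1 group are separate pools, and p-values rest on the spread between pools estimated over all 20 groups.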

Additional observations from a re-analysis of the deposited data

Results flagged for a closer look

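Among 155 probe sets looked at, 15 had 1 banded array far from the other 3, 1 of them in banded 1, 2 in banded 2, 4 in banded 3 and 8 in banded 4. Of the 155, 8 had been named for their wide spread over the banded arrays, and 6 of the 15 are among them (Gpr161, Rab3ip, Bmp2, Tulp1, Nr0b2 and Nos1). Of the other 147, 9 had such an array, and chance flags about 1 in 20 groups of this size. Banded 4 stood low for Gpr161 (7.66 against 10.40 to 10.79 log2 in the other 3), Rab3ip (7.15 against 9.84 to 9.95), Bmp2 (6.84 against 9.07 to 9.26), Tulp1 (8.91 against 11.05 to 11.15) and Nr0b2 (9.93 against 11.75 to 11.82). It stood high for Atf3, a stress-induced transcription factor (10.38 against 9.85 to 9.94), for the second probe set of Npr3 (9.16 against 9.00 to 9.01) and for the probe set rc_AI104567_at, which has no gene symbol (8.69 against 8.10 to 8.19). Banded 3 stood low for Prnp (12.60 against 13.35 to 13.48), Hk1 (12.66 against 13.15 to 13.24), Nmt1 (12.16 against 12.40 to 12.43) and Flnc (12.68 against 12.96 to 13.01). Banded 2 stood low for Cox5a (9.05 against 9.95 to 10.11) and Nos1 (8.95 against 11.04 to 11.29), and banded 1 for Kdr (9.18 against 9.61 to 9.70).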

How the results depend on the processing

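The direction of all 98 called probe sets held under every alternative, and 3 of them (Acta1 and 2 of Akip1) were called under every alternative with a test. Leaving out an array could not reverse a direction, since on all 98 the 4 banded arrays lay on one side of both shams. Fits on the same values (a trended prior, the 6 arrays alone, dim probe sets left out) keep each effect as it was. Against 98 calls, there were 249 with array weights and 411 with all 8 banding shams as the reference (330 higher and 81 lower). When only the 6 arrays of 30 weeks were fitted there were 5. Quantile normalization gave 99 and lost 14 of the 98. Among the lost were probe sets of Gpc1 (adjusted p = 0.167), Ctsl (0.0701), Maoa (0.0701), Flnc (0.0594) and Ndrg4 (0.12), all in limma. Hadhb (adjusted p = 0.0115) and Ndufa9 (adjusted p = 0.0145), not called before, were called lower after it. Leaving out 1 array gave 17 calls (without sham 5) to 119 (without banded 3), with 60 without banded 1 and 54 without banded 2. For the differences from earlier banding and from infarction, leaving out 1 array gave 0 to 8 calls and 0 to 6 calls, both upper values without sham 6. The effect of Myh7, -0.12 and not called, was 0.0014 with array weights, and ran between -0.28 and 0.0372 without 1 array, above 0 at 0.0266 without banded 4 and at 0.0372 without sham 5. Of 102 list medians recomputed, 19 moved by more than the spread between replicates. The cause of these shifts was not tested, and the fits that leave arrays out also hold fewer arrays. No paired analysis was possible because the banded arrays are numbered 1 to 4 and the shams 5 and 6, with no number shared. The files give no detection calls, so signal over background is unknown, and 2 shams limit the precision of every effect.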

Other observations

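Other higher genes came from groups with few calls, beside 0.95% of all genes called higher. Gpx3, the secreted glutathione peroxidase, was higher by 0.71 ± 0.167 log2 (adjusted p = 0.0225), the one call among 31 antioxidant and glutathione enzymes. Ncam1, a neural cell adhesion molecule, was higher by 0.45 ± 0.0953 (adjusted p = 0.0107), the one call among 20 adhesion genes. Ndrg4, known from heart and brain development, was higher by 0.58 ± 0.135 (adjusted p = 0.0225), and Ivns1abp, a kelch protein that binds actin, by 1.17 ± 0.237 (adjusted p = 0.00645). Gnao1, the alpha subunit of the G protein Go, and Maoa, which degrades noradrenaline and serotonin, were picked after their values were seen. Gnao1 was higher by 0.92 and 1.23, and Maoa by 0.78 on 1 probe set, with 0.63 on another that was not called. Without sham 5 none of these 6 genes was called (adjusted p from 0.312 for Gnao1 to 0.9 for Ndrg4), at 0.56 for Gpx3, 0.29 for Ncam1, 0.51 and 0.40 for Ndrg4, 1.05 for Ivns1abp, 0.70 and 1.08 for Gnao1 and 0.61 for Maoa.

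Of 30 ribosomal protein genes 28 were above 0, beside 2332 of 4736 genes in all. None was called, and the median was 0.22 (0.13 after quantile normalization), with Rpl3 at 0.73 ± 0.257. By their brightest probe sets none of 10 complement genes and 25 chaperone genes was called. The largest values were 0.76 ± 0.223 for Serping1, the C1 inhibitor, and 0.74 ± 0.239 for Dnaja4, a co-chaperone. None of 31 chemokine, cytokine and acute phase genes was called (median -0.07). With 0.95% of all genes called higher and 0.211% lower, lists of this size would hold few calls or none.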
